A study of Mus musculus with 6 samples.

Results

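The H2 genes are the major histocompatibility complex genes of the mouse. They were taken as the rows of the deposited count table whose symbol starts with H2-, leaving out the 3 symbols that end in -ps. This gave 42 of 55453 genes, namely 30 of class I, 11 of class II and 1 other gene, H2-Ke6. All 42 lie on chromosome 17 of GRCm38, the chromosome that also carries Srf. The 21 tested members lie 9.27 to 12.6 Mb from Srf.

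Aortae were compared between mice homozygous (3 labelled, 2 in the table) and heterozygous (3) for a floxed Srf allele, the gene of serum response factor. All carried Itga8-CreERT2, a Cre recombinase that tamoxifen activates and that is driven from the locus of an integrin of smooth muscle, and all were given tamoxifen at 33 mg/kg on 5 days in a row, ending 10 days before harvest. The control therefore also carries Cre, tamoxifen and, in recombined cells, 1 deleted Srf copy, and age and sex are not given in the labels. Each aorta was stripped of adventitia and endothelium and frozen on its own, and poly(A) libraries were made from its RNA. The submitters left out 1 homozygous sample as an outlier or sampling error, and homozygous replicate 1 was not analysed here.

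Class I molecules are heavy chains that pair with beta-2 microglobulin and display peptides from inside the cell to CD8 T cells and natural killer cells. Nearly all nucleated cells carry the classical members, while the nonclassical members of the Q, T and M regions have narrower roles. Class II molecules are pairs of alpha and beta chains that display peptides from endocytosed protein to CD4 T cells, and they are made mainly by macrophages, dendritic cells and B cells. Interferon gamma raises both classes, through the transactivators Nlrc5 for class I and Ciita for class II.

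The libraries held 26177821 to 34311855 counts. Levels are given as CPM, the count of a gene relative to library size after TMM scaling by edgeR. Log2 fold changes put the homozygous over the heterozygous group and carry a standard error (SE) from edgeR's quasi-likelihood test. Adjusted p-values are by Benjamini-Hochberg over the 18192 genes tested, with a threshold of 0.05. Srf stood at 56.1, 64.4 and 68.3 CPM across the heterozygous libraries, against 45.0 and 38.6 CPM across the homozygous ones (log2 fold change -0.59, SE 0.122, edgeR adjusted p = 0.115). The smooth muscle markers Acta2 (4161 to 8714 CPM) and Myh11 (5165 to 9439 CPM) were abundant in all 5 libraries, each lower in both homozygous libraries. Skeletal muscle markers differed widely within the groups, with summed levels of 677, 328 and 12.5 CPM across the heterozygous libraries, against 999 and 2728 CPM in the homozygous libraries (Acta1 and Myh1 the most abundant). Adventitial fibroblast markers, led by Gsn and Dcn, summed to 3268 to 4356 CPM in heterozygous and to 4401 and 4578 CPM in homozygous libraries. The part of these other cells in the values of the H2 genes was not tested, and in bulk samples fewer cells of a type and less RNA per cell cannot be told apart. The labels do not say that replicate numbers pair the libraries. The sample descriptions also end in numbers whose meaning the labels do not give. Those of heterozygous replicate 3 and homozygous replicate 2 are consecutive, those of heterozygous replicates 1 and 2 are within 10 of each other, and that of homozygous replicate 3 stands apart. The spread that p-values rest on is that among these 5 aortae, each frozen separately.

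The H2 genes together made up 0.0556%, 0.0622% and 0.0568% of counts in heterozygous replicates 1, 2 and 3, and 0.0716% and 0.0722% in homozygous replicates 2 and 3. Both homozygous libraries were thus above all 3 heterozygous ones. H2-K1 and H2-D1 supplied 60.4% to 67.3% of these counts in each library. Of the 42 members, 11 had no count in any library, 10 had counts but did not pass the filter on low counts, and 21 were tested, 14 of class I and 7 of class II. No tested member passed the threshold in edgeR, higher or lower, which is also so for all genes (0% called in either direction). At an unadjusted p under 0.05, edgeR gave 5 members higher and 0 lower, against 9.04% and 6.75% of all genes tested. At an adjusted p under the threshold DESeq2 called 2 members higher, H2-T24 and H2-T10, with 0 lower. The shares were 3.35% and 2.62% of the genes to which it gave an adjusted p, and it gave none to H2-DMb2 and H2-Ob. Both homozygous libraries lay above all heterozygous ones for 8 members and below them for 0, against 17.4% and 18.2% of all genes (35.6% in either direction). With no filter on low counts edgeR called 6 members higher, H2-T24, H2-T10, H2-Aa, H2-Ab1, H2-Eb1 and H2-Q10, against 3.23% of all genes. The median log2 fold change was 0.36 over the 21 members and -0.02 over all genes tested, and 18 of the 21 were above 0, against 47.2% of all genes. The members share libraries and partly sequence, so these counts are a description.

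**Figure D1:**
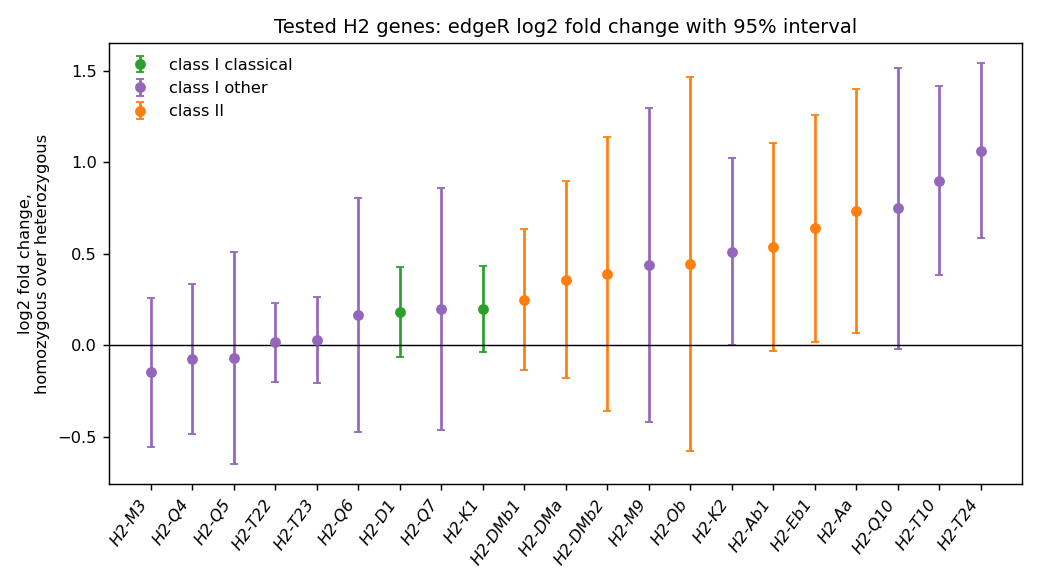
Log2 fold change of the 21 tested H2 genes, homozygous over heterozygous (y axis), in order of size along the x axis, with bars for the 95% interval from the edgeR fit and colours for the class. The intervals of H2-T24 and H2-T10 lie farthest above 0, while those of H2-T22 and H2-T23 are narrow and span 0.

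The classical class I genes were the most abundant members and stood slightly higher in the homozygous group, without passing the test. Per kilobase of exon, H2-D1 stood at 85.4 and H2-K1 at 56.7 CPM in the heterozygous group, against 10.95 for the next member, H2-Eb1. H2-K1 (ENSMUSG00000061232.16) stood at 156, 181 and 162 CPM in heterozygous replicates 1, 2 and 3 and at 194 and 189 CPM in homozygous replicates 2 and 3. The groups did not overlap, with means of 166 ± 12.6 (SD, n = 3) and 191 ± 3.75 CPM (SD, n = 2). The log2 fold change was 0.20 (SE 0.0993, 95% interval -0.03 to 0.44), with an edgeR adjusted p of 0.389. H2-D1 (ENSMUSG00000073411.11) stood at 214, 239 and 208 CPM across the heterozygous libraries, against 261 and 238 CPM across the homozygous ones. Its groups overlapped, since homozygous replicate 3 lay just under heterozygous replicate 2, and its log2 fold change was 0.18 (SE 0.105, 95% interval -0.07 to 0.43). For both genes the interval leaves out a change of 1.5-fold (0.58 on the log2 scale). Coding sequences of the pair were 91.5% identical, and 0.957% of the 100-base words of H2-K1 transcripts and 3.59% of those of H2-D1 occur in transcripts of other genes.

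The promoters of H2-K1 and H2-D1 hold an interferon-type element next to an element of the kind bound by NF-kappa-B. They are shown here with those of class I genes that share the first element or both and differ in level and in fold change. The stretches come from RefSeq (GRCm38.p6) and are aligned on the interferon-type match, with capitals for matches on either strand to TTTCNNTT and to the kappa-B type motif, GGG, any 2 bases, TT, any base and CC.
H2-K1 (chr17:34000398-34000477, minus strand): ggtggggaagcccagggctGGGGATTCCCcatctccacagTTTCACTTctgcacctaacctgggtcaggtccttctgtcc
H2-D1 (chr17:35262904-35262983, plus strand): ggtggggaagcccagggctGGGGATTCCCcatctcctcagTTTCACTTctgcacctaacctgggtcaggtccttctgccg
H2-Q4 (chr17:35379424-35379503, plus strand): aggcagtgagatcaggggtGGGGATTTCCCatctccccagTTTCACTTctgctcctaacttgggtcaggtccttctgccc
H2-Q10 (chr17:35469894-35469973, plus strand): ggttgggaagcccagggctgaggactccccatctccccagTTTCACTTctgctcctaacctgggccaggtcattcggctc
H2-T22 (chr17:36042894-36042973, minus strand): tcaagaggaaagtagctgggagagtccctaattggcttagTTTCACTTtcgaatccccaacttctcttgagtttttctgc
The table held a promoter for 31 members, 16 of them tested, and none for H2-T24, H2-T10, H2-K2, H2-Q5 and H2-Ab1. TTTCNNTT occurred in 10 of the 16 windows of 300 bases (24.3% of all promoters) and the kappa-B type motif in 6 of the 16 (4.78% of all promoters). The 5 stretches above share the first element, and H2-Q10 and H2-T22 have no match to the second. The CCAAT motif occurred in 14 of the 16 (37.9% of all promoters), and the CArG box, the motif that serum response factor binds, in 0 of the 16 (1.57% of all promoters). The motifs were chosen after these promoters were viewed. These are matches of letters in these windows only.

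H2-T24 showed the highest fold change of the members. H2-T24 (ENSMUSG00000053835.17, chromosome 17, 36005695 to 36020560) stood at 4.40, 4.63 and 6.57 CPM in heterozygous replicates 1, 2 and 3 and at 11.5 and 10.2 CPM in homozygous replicates 2 and 3, from 143, 156 and 165 and from 324 and 332 raw counts. The lowest homozygous library thus held more than the highest heterozygous one, and the group means were 5.20 ± 1.19 (SD, n = 3) and 10.8 ± 0.888 CPM (SD, n = 2). The log2 fold change was 1.06 (SE 0.202, 95% interval 0.59 to 1.54), with an edgeR adjusted p of 0.107 and a DESeq2 adjusted p of 0.000668. It ranked 193rd by p among the genes tested, and 3.22% of all genes had a log2 fold change of at least 0.9. None of its 100-base words occur in transcripts of other genes, and its exons overlap no exon of another gene in GENCODE. Its value stayed between 0.80 and 1.28 in all 13 alternatives, with adjusted p from 0.000376 to 0.542.

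H2-T10 (ENSMUSG00000079491.9), annotated as a polymorphic pseudogene, showed a similar difference at a lower level. With H2-T22 it is known as a ligand of some gamma-delta T cell receptors. It stood at 1.48, 1.87 and 2.03 CPM across the heterozygous libraries, against 3.36 and 3.32 CPM across the homozygous ones (48 to 63 and 95 to 108 raw counts), and the groups did not overlap. The log2 fold change was 0.90 (SE 0.219, 95% interval 0.38 to 1.42), with an edgeR adjusted p of 0.139 and a DESeq2 adjusted p of 0.0457. It stayed between 0.73 and 1.01 in the 13 alternatives, with adjusted p from 0.0308 to 0.543.

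H2-T22 and H2-T23, which lie between H2-T24 and H2-T10 on the chromosome, differed little between the libraries. H2-T22 stood at 25.0, 26.4 and 24.8 CPM across the heterozygous libraries, against 26.2 and 25.2 CPM across the homozygous ones (log2 fold change 0.02, SE 0.0918, 95% interval -0.20 to 0.23). H2-T23, the heavy chain of Qa-1, which natural killer cell receptors recognise, stood at 20.4, 20.9 and 22.6 CPM, against 22.2 and 21.1 CPM (log2 fold change 0.03, SE 0.0994, 95% interval -0.21 to 0.26). The groups overlapped for both, and both intervals leave out a change of 1.5-fold in either direction. Their intervals do not reach those of H2-T24 and H2-T10, although the difference between the genes was not tested.

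H2-T22 and H2-T10 are near copies, which bears on how their reads were assigned. Over 1134 aligned coding bases they were 96.9% identical, against 65.8% to 65.9% for either of them with H2-T24. Of their 100-base words, 31.5% of those of H2-T22 and 28.1% of those of H2-T10 also occur in other transcripts, counting both strands. Much of this is antisense overlap. Exons of A930015D03Rik on the opposite strand cover 29.4% of the exon bases of H2-T22, and those of BC023719 cover 27.1% of H2-T10. A930015D03Rik stood at 0.892, 1.22 and 1.27 CPM across the heterozygous libraries, against 1.70 and 1.75 CPM across the homozygous ones, while BC023719 was not tested. The values of H2-T10 and H2-T22 are therefore uncertain to the extent that reads of a copy or of the other strand were counted with them. H2-Bl, known from the blastocyst and lying between H2-T22 and H2-T10, did not pass the filter, with 2, 1 and 6 counts in the heterozygous and 9 and 9 in the homozygous libraries, without overlap.

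**Figure D2:**
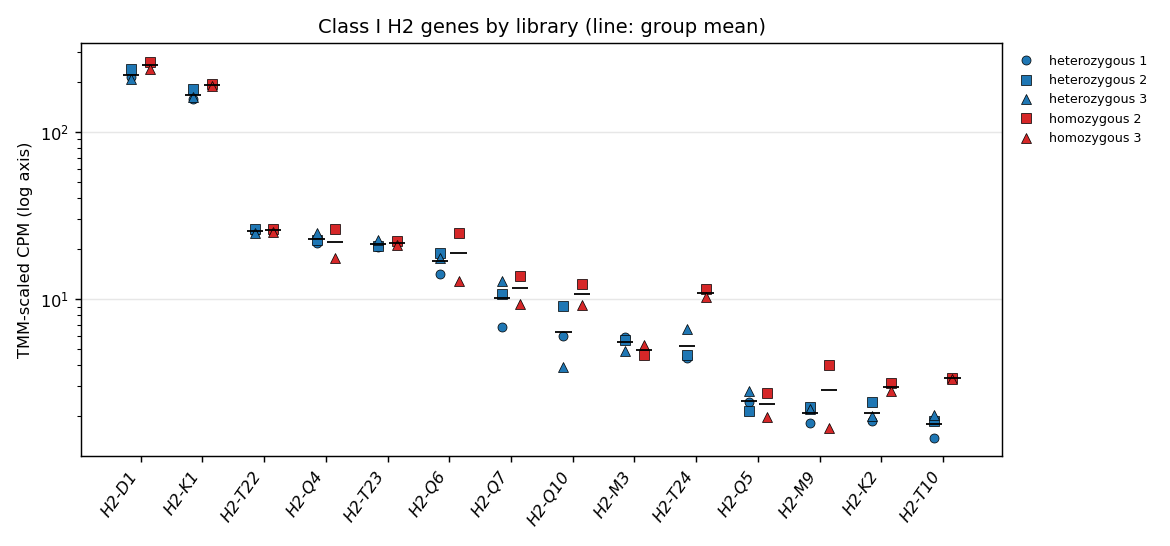
TMM-scaled CPM (log y axis) of the 14 tested class I genes in each of the 5 libraries, with blue for heterozygous and red for homozygous, marker shape for the replicate number and a line for each group mean. The groups are apart for H2-T24, H2-T10, H2-Q10, H2-K2 and H2-K1, and homozygous replicates 2 and 3 lie on either side of the heterozygous values for H2-Q4, H2-Q6 and H2-M9.

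In 4 of the 5 tested Q region genes, H2-Q4 to H2-Q7, the 2 homozygous libraries differed by more than the group means. H2-Q4 stood at 21.7, 22.5 and 24.8 CPM across the heterozygous libraries, against 26.1 and 17.5 CPM across the homozygous ones (log2 fold change -0.08, SE 0.174). H2-Q6 and H2-Q7, which encode Qa-2 antigens, stood at 24.9 and 13.7 CPM in homozygous replicate 2 and at 12.8 and 9.37 CPM in replicate 3. Their heterozygous libraries ranged from 14.2 to 18.8 and from 6.83 to 12.8 CPM, and the log2 fold changes were 0.16 (SE 0.270) and 0.20 (SE 0.279). H2-Q5, a polymorphic pseudogene, ranged from 2.14 to 2.83 CPM in the heterozygous group and read 2.72 and 1.97 CPM in homozygous replicates 2 and 3 (log2 fold change -0.07, SE 0.245). In all 4 genes homozygous replicate 2 was the higher of the pair, and the groups overlapped. H2-Q6 and H2-Q7 coding sequences were 95.4% identical, so reads may have been split between them. The summed level of 10 endothelial markers was also higher in homozygous replicate 2 than in replicate 3. It was 854, 1081 and 818 CPM across the heterozygous libraries, against 1214 and 472 CPM in homozygous replicates 2 and 3. Vwf and Pecam1, the most abundant of the list, stood at 463 and 96.0 CPM and at 340 and 115 CPM in those 2 homozygous libraries. The log2 fold changes of the 10 markers ran from -0.29 to 0.79, with a median of 0.04. Among the heterozygous libraries the sum was lowest in replicate 3, where H2-Q4, H2-Q5 and H2-Q7 were highest. H2-Q6 was highest in heterozygous replicate 2, as was the sum. The part of endothelial cells in the Q region values was not tested.

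H2-Q10, which encodes a secreted class I protein known from liver, was highest in both homozygous libraries. It stood at 6.03, 9.10 and 3.90 CPM across the heterozygous libraries, against 12.2 and 9.25 CPM across the homozygous ones, so that the groups did not overlap but nearly touched. The log2 fold change was 0.75 (SE 0.325, 95% interval -0.02 to 1.52), with an edgeR adjusted p of 0.328. It was 0.53 without homozygous replicate 2, 0.52 without heterozygous replicate 3 and 1.12 without heterozygous replicate 2. Adipocyte markers also had heterozygous replicate 2 as the highest of its group. Among the homozygous libraries the order differed, with replicate 2 the higher for H2-Q10 and replicate 3 the higher for the summed adipocyte markers. Their summed level was 1806, 2894 and 1804 CPM across the heterozygous libraries, against 3644 and 3784 CPM across the homozygous ones. Fabp4, the most abundant of that list, stood at 598, 842 and 541 CPM, against 1126 and 1238 CPM, Cfd ranged from 363 to 739 CPM, and the part of fat in the level of H2-Q10 was not tested.

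The remaining tested class I genes, H2-K2, H2-M9 and H2-M3, stood at 1.69 to 5.94 CPM. H2-K2, a transcribed pseudogene beside H2-K1, stood at 1.85, 2.40 and 1.99 CPM across the heterozygous libraries, against 3.15 and 2.80 CPM across the homozygous ones, without overlap (log2 fold change 0.51, SE 0.216, edgeR adjusted p = 0.316). H2-M9 stood at 1.81, 2.25 and 2.19 CPM, against 3.99 and 1.69 CPM (log2 fold change 0.44, SE 0.364), with the 2 homozygous libraries at the opposite ends. H2-M3, which displays peptides with an N-formyl start such as those of bacteria and mitochondria, stood at 5.94, 5.69 and 4.89 CPM, against 4.63 and 5.31 CPM, and had the lowest fold change of the members (log2 -0.15, SE 0.171, 95% interval -0.55 to 0.26). Over the 14 class I genes the median log2 fold change was 0.19. It was -0.01 without homozygous replicate 2 and 0.35 without homozygous replicate 3.

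Class II genes were higher mostly in 1 homozygous library. H2-Aa, the alpha chain of I-A, stood at 20.0, 28.5 and 29.4 CPM in heterozygous replicates 1, 2 and 3 and at 29.5 and 56.8 CPM in homozygous replicates 2 and 3. Homozygous replicate 2 thus lay at the level of the highest heterozygous library and replicate 3 well above it. Its log2 fold change was 0.74 (SE 0.282, 95% interval 0.07 to 1.40), with an edgeR adjusted p of 0.275 and a DESeq2 adjusted p of 0.128. H2-Ab1, the beta chain of I-A, stood at 19.6, 23.99 and 27.1 CPM, against 24.8 and 43.5 CPM (log2 fold change 0.54, SE 0.241). H2-Eb1, the beta chain of I-E, stood at 16.6, 21.9 and 25.4 CPM, against 23.8 and 42.4 CPM (log2 fold change 0.64, SE 0.263). In both the groups overlapped, with homozygous replicate 2 inside the heterozygous range. Without homozygous replicate 3 the log2 fold changes of H2-Aa, H2-Ab1 and H2-Eb1 were 0.19, 0.07 and 0.16. Without homozygous replicate 2 they were 1.13, 0.88 and 0.99.

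Class II genes of peptide loading also had fold changes above 0, none with an unadjusted p under 0.05. H2-DMa and H2-DMb1, the chains of the DM molecule that exchanges peptides on class II, stood at 6.67 and 7.71 CPM in homozygous replicate 3, against 3.72 to 4.85 and 5.55 to 6.05 CPM in the heterozygous libraries. In homozygous replicate 2 they stood at 4.45 and 6.12 CPM, and their log2 fold changes were 0.36 (SE 0.227) and 0.25 (SE 0.163). H2-DMb1 shares 11.3% of its words with H2-DMb2, a second DM beta gene at 0.400 to 0.475 CPM in heterozygous and 0.566 and 0.584 CPM in homozygous libraries (log2 fold change 0.39, SE 0.317). The groups did not overlap for H2-DMb1 and H2-DMb2, and overlapped for H2-DMa. H2-Ob, a chain of the DO molecule that restrains DM, ranged from 0.279 to 0.738 CPM and stood at 0.601 and 0.829 CPM (log2 fold change 0.44, SE 0.433). All 7 tested class II genes had a log2 fold change above 0 (47.2% of all genes), with a median of 0.44. For 2 of them, H2-Aa and H2-Eb1, the unadjusted edgeR p was under 0.05 (9.04% of all genes were higher at that p). Without homozygous replicate 3 the median was 0.16, and with a term for the description numbers, which leaves only heterozygous replicate 3 against homozygous replicate 2, it was 0.00374, with H2-DMa, H2-Ab1 and H2-Eb1 below 0.

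**Figure D3:**
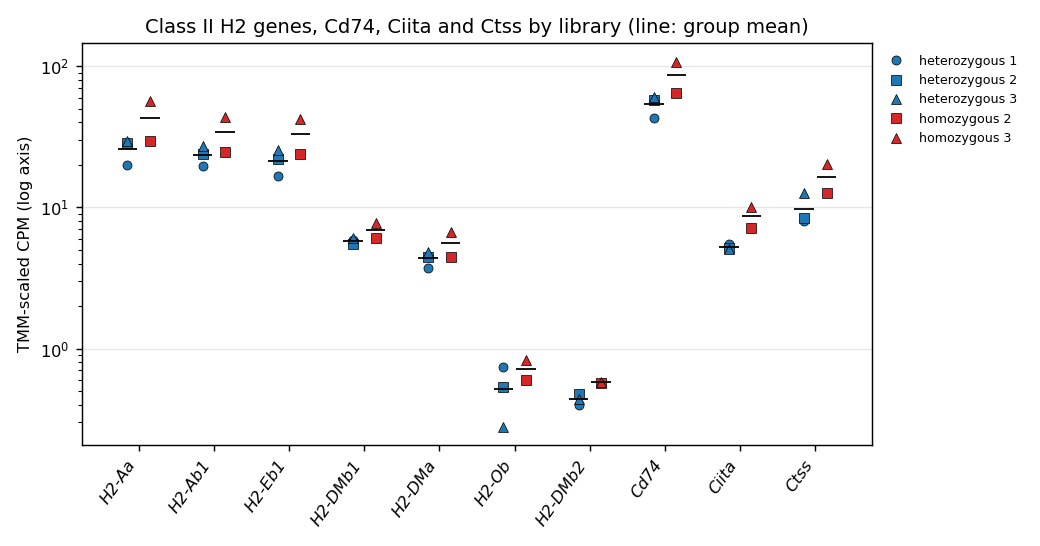
TMM-scaled CPM (log y axis) of the 7 tested class II H2 genes and of Cd74, Ciita and Ctss in each of the 5 libraries, with blue for heterozygous and red for homozygous, marker shape for the replicate number and a line for each group mean. Homozygous replicate 3 is the highest library for every gene drawn, while homozygous replicate 2 lies close to the heterozygous values for H2-Aa, H2-Ab1 and H2-Eb1.

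Partners of class II were also highest in homozygous replicate 3. Cd74, the invariant chain that guides class II through the cell, stood at 43.1, 57.9 and 60.8 CPM across the heterozygous libraries, against 64.7 and 108 CPM across the homozygous ones (log2 fold change 0.68, SE 0.232, edgeR adjusted p = 0.235). Ciita, the transactivator of class II, stood at 5.50, 5.13 and 5.09 CPM, against 7.14 and 10.1 CPM, with no overlap (log2 fold change 0.72, SE 0.184, edgeR adjusted p = 0.149, DESeq2 adjusted p = 0.0332). Without homozygous replicate 3, Ciita gave 0.45 and Cd74 0.26. Ctss, the protease that trims the invariant chain, stood at 8.03, 8.45 and 12.7 CPM, against 12.6 and 20.2 CPM (log2 fold change 0.76, SE 0.262). Of the 13 tested genes of class II loading and control, edgeR called 0. At an unadjusted p it gave 3 higher and 0 lower (9.04% and 6.75% of all genes), and the median log2 fold change was 0.23. DESeq2 called 1 higher, Ciita (3.35% of genes with a DESeq2 adjusted p). The most abundant, Ctsl and Lgmn, gave 0.17 (SE 0.135) and 0.23 (SE 0.103).

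Markers of macrophages, dendritic cells and B cells did not all have the library order of class II. Over 14 macrophage markers the median log2 fold change was 0.57. For these, edgeR called 0 but gave 9 higher and 1 lower at an unadjusted p (9.04% and 6.75% of all genes). DESeq2 called 5 higher and 1 lower of these markers (3.35% and 2.62% of genes with a DESeq2 adjusted p). Their summed level, which includes Mertk, was 511, 491 and 682 CPM across the heterozygous libraries, against 609 and 771 CPM in the homozygous libraries. Relative to the heterozygous mean, their median log2 level was -0.07, -0.18 and 0.22, against 0.34 and 0.70. Without overlap, 9 of the 14 were higher and 1 lower, against 17.4% and 18.2% of all genes. Adgre1, which encodes F4/80, stood at 13.3, 12.3 and 15.0 CPM, against 22.8 and 27.6 CPM, and Lyz2 at 78.4, 75.1 and 95.1 CPM, against 125 and 167 CPM. Mertk, the most abundant of the list and also expressed by other cells, differed in the other direction, with 146, 172 and 244 CPM against 105 and 108 CPM. The 9 dendritic cell markers summed to 36.1 to 38.5 CPM in heterozygous and to 46.5 and 41.7 CPM in homozygous replicates 2 and 3. Most of this was Zbtb46, which endothelium also expresses, at 32.4 to 34.2 CPM and at 42.1 and 35.9 CPM. The order of the homozygous sums was that of Zbtb46. Siglech was next at 0.830 to 2.00 CPM, with 0.848 and 1.66 CPM in homozygous replicates 2 and 3. Relative to the heterozygous mean, the median log2 level of the 7 tested dendritic cell markers was 0.16 and 0.15 in these libraries. Their median log2 fold change was 0.23, and edgeR and DESeq2 each called 0. At an unadjusted p edgeR gave 1 higher and 0 lower (9.04% and 6.75% of all genes). Without overlap, 3 of the 7 were higher and 0 lower (17.4% and 18.2% of all genes). B cell markers summed to 0.741 to 2.18 CPM over 7 genes, with heterozygous replicate 1 highest (Cd79b at most 0.461 CPM) and T and natural killer cell markers to 1.52 to 2.73 CPM over 11 (Cd4 and Lck at most 0.584 CPM). The part of macrophages in the class II values was not tested.

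**Figure D4:**
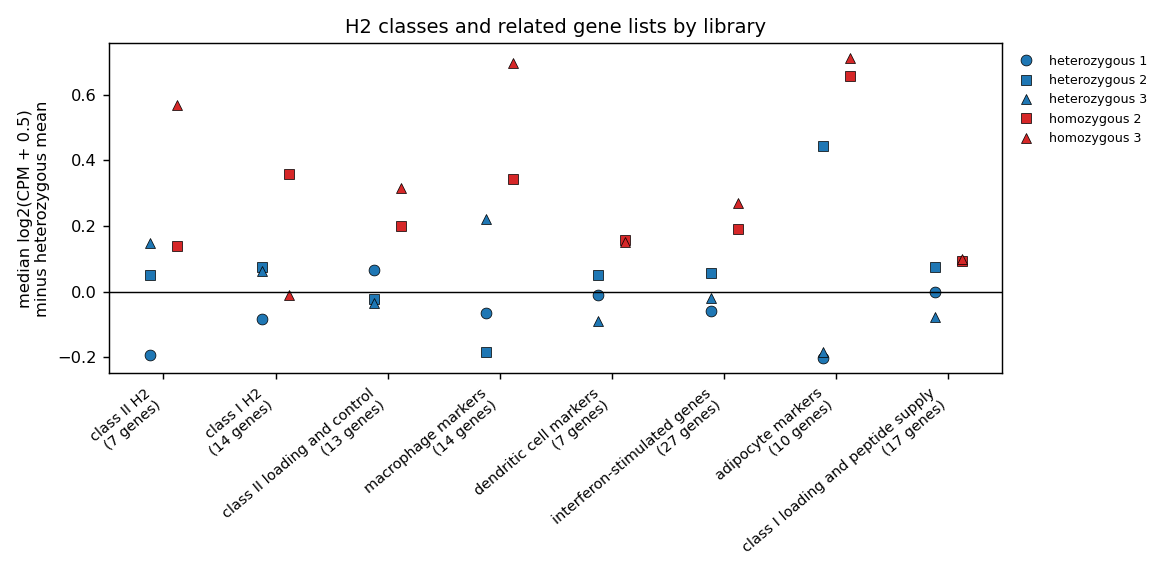
Median over genes of log2(CPM + 0.5) minus its heterozygous mean (y axis) for the H2 classes and 6 related lists (x axis, with the number of tested genes), 1 point a library, with blue for heterozygous and red for homozygous and marker shape for the replicate number. Homozygous replicate 3 is the higher homozygous library for class II genes (0.57 against 0.14) and macrophage markers (0.70 against 0.34), and the lower one for class I genes (-0.01 against 0.36).

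Genes that build and load class I had a median log2 fold change of 0.08. B2m, the beta-2 microglobulin shared by all class I molecules, stood at 193, 214 and 189 CPM across the heterozygous libraries, against 223 and 260 CPM across the homozygous ones (log2 fold change 0.28, SE 0.111, edgeR adjusted p = 0.284). Of the 17 genes of class I loading and peptide supply, edgeR called 0 and DESeq2 0, and at an unadjusted p edgeR gave 3 higher (B2m, Psmb8 and Psme2) and 0 lower, against 9.04% and 6.75% of all genes. Without overlap, 6 of the 17 were higher and 0 lower, against 17.4% and 18.2% of all genes. Psmb8, a subunit of the immunoproteasome, stood at 7.53, 7.95 and 8.67 CPM, against 10.9 and 10.4 CPM (log2 fold change 0.41, SE 0.129), and Psme2, a proteasome activator, gave 0.32 (SE 0.119). Tap1, which carries peptides into the endoplasmic reticulum, gave 0.08 (SE 0.106) and Nlrc5, the class I transactivator, 0.08 (SE 0.167). Both Tap1 and Psmb8 lie inside the H2 region, between the tested class II genes. The most abundant of the list, the chaperones Calr and Hspa5, gave -0.01 (SE 0.209) and -0.28 (SE 0.413).

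Interferon genes and class I relatives encoded elsewhere were compared as well. Of 27 interferon-stimulated genes, edgeR called 0 and DESeq2 0, edgeR gave 4 higher and 0 lower at an unadjusted p (9.04% and 6.75% of all genes), 13 were higher without overlap and 0 lower (17.4% and 18.2% of all genes), and the median log2 fold change was 0.29. Ifi27, the most abundant, stood at 111, 166 and 117 CPM, against 196 and 174 CPM (log2 fold change 0.50, SE 0.181), and Ifitm3 gave 0.23 (SE 0.107). Among 16 genes of interferon signalling edgeR called 0, and the median log2 fold change was 0.09. At an unadjusted p it gave 3 higher and 2 lower (9.04% and 6.75% of all genes). DESeq2 called 1 higher and 0 lower (3.35% and 2.62% of genes with a DESeq2 adjusted p). Without overlap, 5 were higher and 2 lower (17.4% and 18.2% of all genes). The kinases Jak1 and Jak2, which carry the signal of interferon receptors, gave 0.06 (SE 0.0881) and -0.23 (SE 0.0822). Of 7 tested relatives outside the H2 region, edgeR called 0 and gave 3 higher and 0 lower at an unadjusted p (9.04% and 6.75% of all genes). DESeq2 called 0 lower and 1 higher (2.62% and 3.35% of genes with a DESeq2 adjusted p). The gene called was Cd1d1, which displays lipids to natural killer T cells. It stood at 20.2, 23.2 and 15.6 CPM, against 30.3 and 37.3 CPM (log2 fold change 0.78, SE 0.177, edgeR adjusted p = 0.128, DESeq2 adjusted p = 0.00676). Hfe, a regulator of iron uptake, gave 0.49 (SE 0.156), Fcgrt, the neonatal Fc receptor, 0.13 (SE 0.104) and Mill2 -0.05 (SE 0.125).

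Neighbouring H2 genes differed in fold change. Both genes with a log2 fold change near 1, H2-T24 and H2-T10, lie 10.5 and 10.4 Mb from Srf, and H2-T23 and H2-T22, with fold changes near 0, lie between them. Among 8 genes other than H2 genes from H2-T24 to H2-T10, only A930015D03Rik was tested. It was higher without overlap (log2 fold change 0.62, SE 0.259, edgeR adjusted p = 0.313). Of 97 tested genes other than H2 genes between the outermost tested members, 13 were higher and 18 lower without overlap, near the 17.4% and 18.2% of all genes. The median log2 fold change was -0.04, and edgeR gave 5 higher and 5 lower at an unadjusted p (9.04% and 6.75% of all genes). DESeq2 called 1 of them in each direction (3.35% and 2.62% of genes with a DESeq2 adjusted p). Of 47 tested genes between the last tested member, H2-M3, and Srf, 11 were higher and 12 lower without overlap. The shares over all genes were 17.4% and 18.2%. Their median log2 fold change was 0.02, and edgeR gave 7 higher and 3 lower at an unadjusted p (9.04% and 6.75% of all genes). In this stretch DESeq2 called 3 higher and 1 lower (3.35% and 2.62% of genes with a DESeq2 adjusted p). The nearest tested protein-coding gene on the centromere side, Vps52, gave 0.05 (SE 0.0909). On the side towards Srf it was 9130008F23Rik, at 5.44, 6.11 and 7.72 CPM across the heterozygous libraries, against 2.72 and 2.43 CPM in the homozygous libraries (log2 fold change -1.32, SE 0.215, edgeR adjusted p = 0.104, DESeq2 adjusted p = 7.84e-05). The floxed Srf allele is on the same chromosome, so alleles of the H2 region that travelled with it and the loss of Srf cannot be told apart in this design, and the files hold no genotype for these genes.

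**Figure D5:**
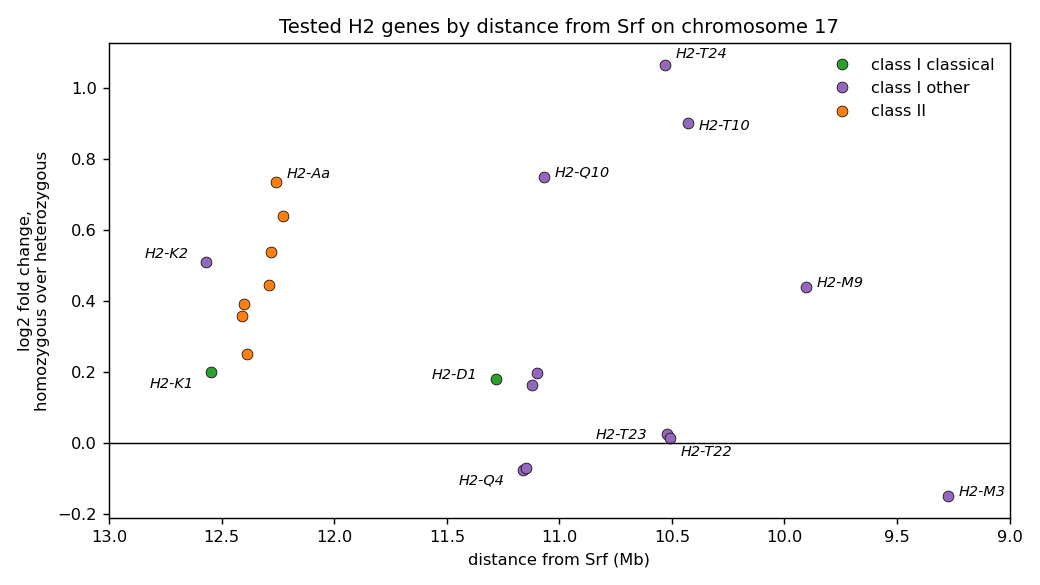
Log2 fold change of the 21 tested H2 genes, homozygous over heterozygous (y axis), against the distance of each gene from Srf in Mb (x axis, Srf lying to the right), coloured by class. H2-T24 and H2-T10 stand near 1 while H2-T23 and H2-T22, at nearly the same distance, stand near 0.

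Members that did not pass the filter on low counts had few or no counts. H2-Bl, H2-M5 and H2-Ke6 had totals of 27, 26 and 24 counts over the 5 libraries. H2-M5 had 8, 9 and 1 in the heterozygous and 5 and 3 in the homozygous libraries. H2-Ke6, a hydroxysteroid dehydrogenase gene rather than a histocompatibility gene, had 4 to 6 in each library, and 86.4% of its exon bases lie in exons of Gm20427 on the same strand. Another 7 members had totals of 1 to 7 counts (H2-Eb2 with 7, H2-Oa with 5, H2-M11 and H2-M2 with 2, and H2-Q1, H2-M1 and H2-Pb with 1). No count was found for H2-Pa, H2-Q2, H2-Q3, H2-T3, H2-M10.1 to H2-M10.6 and H2-M10.5-ps1.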

How the data were processed

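Whole-number gene counts of 5 aortic libraries (26177821 to 34311855 per library) were used as deposited by the authors. The build was GRCm38, and the tools named are STAR 2.7.0f, fastp 0.20.0 and Subread 1.6.4 with its featureCounts, per the submitters' processing notes. The kit was a stranded one, per the labels' protocols, while the annotation and whether counting used strand were not given in the sources used here. Columns were matched to samples by the sample descriptions.

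After filterByExpr and TMM scaling, edgeR 4.0.16 (R 4.3.3) tested 18192 genes by its quasi-likelihood F test, with group as the sole term and 3 residual and 4.01 prior degrees of freedom. SE is the log2 fold change over the root of F, and the 95% intervals use 7.01 degrees of freedom. The fit was tested on simulated data. Libraries differed from each other by more than sampling noise (chi-square per degree of freedom 18.3 to 96.0). DESeq2 1.42.0 and limma 3.58.1 (voom) were alternatives, beside other size factors, other filters, a replicate block, a term for the description numbers (those within 10 share a level) and each library left out.

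Every tested H2 gene is named. From each other list, members past the threshold (there were none) and the 2 most abundant are named, with Srf and the flanking genes. Ciita, Cd74, Ctss, B2m, Psmb8, Psme2, Tap1, Nlrc5, Cd1d1, Hfe, Adgre1 and A930015D03Rik were chosen after their values were seen. Members, lists and motifs were chosen with earlier results or the sequences known. Coordinates, exon lengths and 100-base words are from GENCODE mouse release 21 (GRCm38), which holds all 42 symbols. A few genes and a sequence that the rules above would include are not reported here.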

Additional observations from a re-analysis of the deposited data

How the results depend on the processing

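edgeR called 0 H2 genes in either direction in the fit reported and in all but 1 of its alternatives. With no low-count filter it called 6 higher (H2-T24, H2-T10, H2-Aa, H2-Ab1, H2-Eb1 and H2-Q10, adjusted p from 0.000376 to 0.0403), against 3.23% of all genes called higher there, and DESeq2 called 2. limma-voom called 0. Over all genes, 0 higher and 0 lower in the reported fit became 524 and 411 with DESeq2, 982 and 432 with no low-count filter, 8 and 1 with the term for description numbers, and 0 and 1 with limma-voom, and 0 to 139 higher and 0 to 9 lower with a library left out (139 and 9 without heterozygous replicate 2, and 1 higher without homozygous replicate 3). The replicate block gave 3 higher and 2 lower over all genes and 0 H2 genes. Deviations of libraries with the same number from their group means correlated at -0.0099 and -0.194. With only 2 homozygous libraries, their deviations mirror each other. These values therefore cannot decide whether the numbers pair the libraries. A crossed pairing, added after the data were seen, called 0 genes.

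The class I median was -0.0125 to 0.349 with a library left out and the class II median 0.162 to 0.65, and the latter was 0.00374 with the term for description numbers. In 10 of the 21 tested H2 genes the sign turned in at least 1 alternative. With a library left out, the log2 fold change ranged over -0.393 to 0.187 for H2-Q4, -0.322 to 0.149 for H2-Q5, -0.394 to 0.569 for H2-Q6, -0.103 to 0.450 for H2-Q7, -0.0098 to 0.0884 for H2-T23, -0.0151 to 0.0605 for H2-T22 and -0.304 to 0.939 for H2-M9. With the description term, H2-DMa gave -0.124, H2-Ab1 -0.131, H2-Eb1 -0.0956, H2-Q4 0.0758 and H2-T23 -0.0254. With the replicate block, H2-Q6 gave -0.0150, H2-Q7 -0.0356 and H2-T23 -0.0027. The lowest or highest values of H2-Q4, H2-Q5, H2-Q6, H2-Q7 and H2-M9 came without homozygous replicate 2 or 3.

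Among the other named genes, the range with a library left out was -0.509 to 0.349 for Hspa5, -0.157 to 0.221 for Calr, -0.246 to 0.119 for Mill2, -0.562 to 0.535 for Siglech, -0.899 to 0.541 for Cd4, -1.80 to 0.478 for Vwf, -1.28 to 0.293 for Pecam1 and -0.0438 to 0.258 for Nlrc5. The description term gave Hspa5 0.359, Calr 0.312, Mill2 0.0971, Siglech -0.109, Cd4 -1.27, Vwf 0.556, Pecam1 0.383, Ctss -0.0127 and Nlrc5 -0.194. The replicate block gave Calr 0.0241, Cd4 -0.0256 and Nlrc5 -0.0388. Calr gave 0.00076 and 0.0148 with RLE and upper-quartile factors, 0.0275 with limma-voom, 0.0080 with no filter and 0.0010 with the stricter filter, and Cd4 -0.0791 with limma-voom and -0.0022 with DESeq2. The cause was not tested. Where a single library is left in a group, it is assumed to vary like the others.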

Other observations

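The 3 H2- rows left out by their -ps ending also had few counts. H2-T-ps, an unprocessed pseudogene between H2-Bl and H2-T10, had 2, 2 and 4 counts in the heterozygous and 5 and 6 in the homozygous libraries, H2-M6-ps had 3 counts in homozygous replicate 3 alone, and H2-Ea-ps had 0 in all libraries.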
